A study of Mus musculus with 4 samples.

Results

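The mitochondrial carrier family (SLC25) comprises proteins of the inner mitochondrial membrane that exchange metabolites, nucleotides, phosphate, cofactors and protons between the cytosol and the matrix. Its genes were taken by symbol, as every *Slc25a* gene with a number together with *Ucp1*, *Ucp2* and *Ucp3*, which gave 50 genes of the 55401 listed in the heart expression table. The question was how the transcripts of these carriers, grouped by what they transport, compared between hearts of wild-type and *Ctcf* heterozygous mice. Hearts were taken at 8 weeks of age, with 2 replicate libraries of each genotype, and each library is taken here as 1 mouse. The edited line was made on C57BL/6N mice. The heterozygous animals carry CTCF-R567W, a substitution introduced by CRISPR/Cas9 in the DNA-binding protein CTCF, on 1 *Ctcf* allele in every cell, and the wild-type animals carry none. Replicates are numbered 1 and 2 within each genotype, and values are given in that order, wild-type first.

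A heart obtains most of its ATP from mitochondria, and the ATP made in the matrix leaves through an ADP/ATP carrier while phosphate returns through the phosphate carrier. Other members bring in acylcarnitines for β-oxidation, carry the malate, aspartate and glutamate of the redox shuttle, or supply iron, coenzyme A, NAD+ and pyrimidine nucleotides to the matrix. Uncoupling proteins let protons or fatty acid anions cross the membrane without ATP synthesis, and *Ucp3* is the form typical of heart and skeletal muscle, whereas *Ucp1* is that of brown fat.

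Expression was deposited as TPM, a relative transcript abundance that sums to one fixed total per library. Of that total, the 37 mitochondrially encoded genes, whose symbols begin with mt-, held 64.7% and 61.1% in wild-type and 68.6% and 62.6% in heterozygous hearts. Their 11 nuclear copies held 14.1% and 14.9% against 17.2% and 19.8%, which left 21.2% and 24.0% against 14.2% and 17.6% for all remaining genes. Each library was therefore divided by a median-of-ratios factor (1.09 and 1.26, 0.818 and 0.903), and the resulting scaled TPM is the level used below. A difference is the heterozygous minus the wild-type mean of log2(scaled TPM + 1), with its standard error (SE) and a two-sided limma test adjusted over the 10036 genes whose mean TPM reached 1. *Ctcf* itself stood at 6.12 and 6.02 against 7.51 and 5.76 scaled TPM (difference 0.10, SE 0.16, limma adjusted p = 0.814), and a point mutation leaves the transcript in place, so this level does not check the genotype. The cardiomyocyte markers *Myh6*, *Myl2*, *Tnnt2*, *Tnni3*, *Actc1* and *Ryr2* were present in every library, with a median difference of -0.11. They were split. *Actc1* (-0.46) and *Myl2* (-0.39) were lower in both heterozygous hearts. *Tnnt2* (-0.18), *Ryr2* (-0.04), *Tnni3* (0.04) and *Myh6* (0.08) overlapped between genotypes.

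The largest differences in the carrier family were those of a few members. *Ucp3* had the lowest ratio, with a mean level in heterozygous hearts 0.342 times that in wild-type hearts, followed by the orphan carrier *Slc25a34* at 0.395 times. *Slc25a42*, *Slc25a36*, *Slc25a33*, *Slc25a20* and *Slc25a22*, carriers of coenzyme A, pyrimidine nucleotides, acylcarnitine and glutamate, stood between 0.569 and 0.688 times the wild-type mean. The single member at an unadjusted p under 0.05 in the other direction was *Slc25a47*, at 1.66 times. The ADP/ATP and phosphate carriers *Slc25a4*, *Slc25a3* and *Slc25a5*, which hold most of the family's transcripts, were at 0.729, 0.770 and 0.809 times, and their intervals included no difference.

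Of the 50 members, 35 passed the filter and were tested, and 15 had a mean TPM below 1. No member passed an adjusted p of 0.05 with a fold over 1.5 in limma, where 0.0199% of all tested genes, 2 in number, were called lower and 0% were called higher. At an unadjusted p under 0.05, 7 of the 35 tested members (20%) were lower in heterozygous hearts against a background of 5.71% of all tested genes, and 1 (2.86%) was higher against 6.49%. Without heterozygous replicate 2 the count of lower members was 12, where 12.3% of all tested genes were lower at that p. Without wild-type replicate 1 it was 4 (2.58% of all) and without wild-type replicate 2 it was 3 (2.08% of all). With the pseudocount of 1, which brings the fold of low genes nearer to 1 than the ratio of their means, a difference beyond a fold of 1.5 was found downwards in 5 tested members (14.3%) against 2.25% of all tested genes, and upwards in 0 against 2.5%. Both heterozygous libraries lay below both wild-type libraries in 15 tested members (42.9%) against 23.3% of all tested genes, and above both in 7 (20%) against 23.7%.

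The middle of the family was close to that of all genes. The difference was below 0 in 20 of the 35 tested members (57.1%) and in 50.7% of all tested genes, and its median was -0.06 over the members and -0.0047 over all tested genes, with members ranging from -1.45 to 0.56. When TPM were used as deposited, the median of all tested genes was itself -0.35, that of the members was -0.43, and 33 of the 35 members were below 0. Then *Ucp3* and *Slc25a34* passed the adjusted threshold (limma adjusted p = 0.0220 and 0.0247), as they did after removal of the mt- genes (0.0361 and 0.0441), where the median of all genes was -0.31. Over all tested genes, 11 and 12 were called lower in these settings, against 2 on scaled TPM. Wherever a tested member is described below as higher in heterozygous hearts, its difference was below 0 on TPM as deposited. The exceptions were *Slc25a47* at 0.21 and *Slc25a1* at 0.03. *Slc25a53*, below the filter and not tested, was higher as deposited too, at 0.65 and 0.58 against 0.82 and 0.73 TPM.

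**Figure D1:**
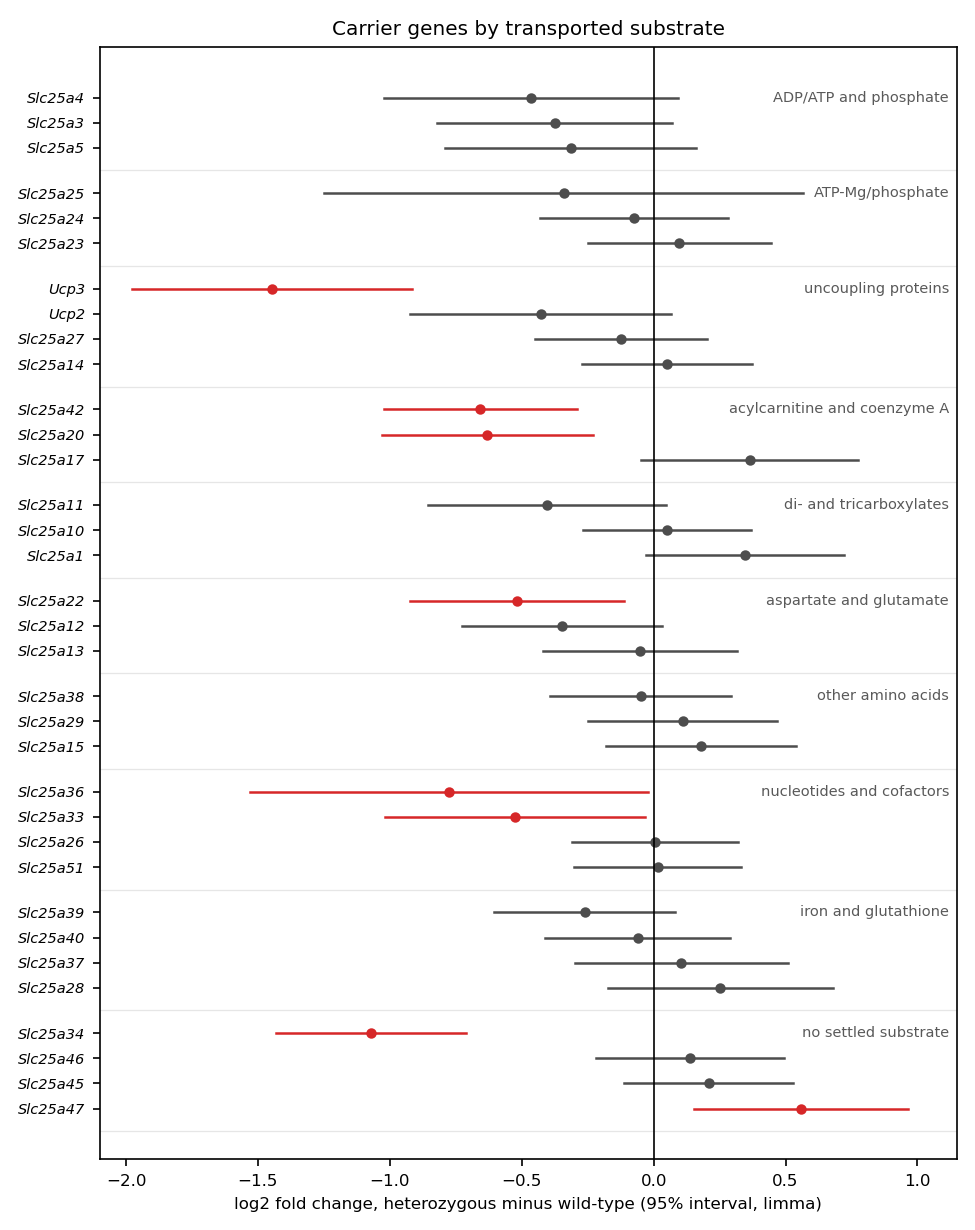
Differences of 34 of the 35 tested carrier genes between heterozygous and wild-type hearts on the log2(scaled TPM + 1) scale, grouped by transported substrate, with 95% intervals from limma (n = 2 mice per genotype) and red for an unadjusted p under 0.05. *Ucp3* at -1.45 and *Slc25a34* at -1.07 lie farthest to the left, and *Slc25a47* at 0.56 farthest to the right.

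*Ucp3* lies on mm10 at chr7:100472990-100486432, on the plus strand. It stood at 37.9 and 25.8 scaled TPM in wild-type hearts, against 12.0 and 9.82 in heterozygous hearts. Every heterozygous value was below every wild-type value, although the wild-type hearts differed from each other more than the heterozygous hearts did (31.9 ± 8.5 against 10.9 ± 1.53, SD, n = 2 each). The difference was -1.45 (SE 0.22, 95% interval -1.98 to -0.92, limma adjusted p = 0.199). *Ucp3* was the 5th most abundant member in both wild-type hearts and the 9th and 11th in the heterozygous hearts. Leaving out each library in turn gave differences between -1.71 and -1.18.

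*Ucp2*, found more widely among tissues, lies next to *Ucp3* on the same strand at chr7:100493337-100502020, with 6904 bases between the genes. It stood at 5.31 and 6.2 against 3.14 and 5.06 scaled TPM. Both heterozygous hearts were below both wild-type hearts, but the upper heterozygous value was close to the lower wild-type value, and the difference of -0.43 had a 95% interval of -0.92 to 0.07 (SE 0.21, limma adjusted p = 0.440). *Ucp3* made up 87.7% and 80.7% of the summed TPM of the pair in wild-type hearts, against 79.2% and 66.0% in heterozygous hearts. A share of this kind does not depend on the scaling of the library, and with 2 mice per genotype its exact permutation p of 0.33 is the smallest the design allows. *Ucp1* was listed at 0.11 TPM in wild-type replicate 1 and at 0 in the other 3 libraries. The relatives *Slc25a27* and *Slc25a14*, known mainly from nervous tissue, had differences of -0.12 and 0.05, and *Slc25a30* was below the filter at 0.746 to 1.06 scaled TPM.

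*Slc25a34*, a carrier with no settled substrate, lies on the minus strand at chr4:141618824-141623821. Its level was 6.5 and 6.13 scaled TPM in wild-type hearts, against 2.81 and 2.17 in heterozygous hearts. The genotypes were well apart relative to the spread within each (6.31 ± 0.262 against 2.49 ± 0.455, SD, n = 2 each), with a difference of -1.07 (SE 0.15, 95% interval -1.43 to -0.71, limma adjusted p = 0.174). In rank within the family it stood 16th and 17th among wild-type hearts and 27th and 29th among heterozygous hearts. *Slc25a47*, an orphan carrier best known from liver, lies at chr12:108836046-108856815 on the plus strand and stood at 2.89 and 2.55 against 5.24 and 3.8 scaled TPM. Both heterozygous values were above both wild-type values, with a difference of 0.56 (SE 0.17, 95% interval 0.15 to 0.96, limma adjusted p = 0.341). Only 162 bases separate it from *Slc25a29*, a carrier of basic amino acids on the opposite strand, which stood at 1.16 and 1.34 against 1.63 and 1.24 with overlapping genotypes.

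The 250 bases upstream of the start of *Ucp3*, *Slc25a34* and *Slc25a47* as RefSeq places it, are printed here because these members had the largest differences in each direction and each window holds the hexamer AGGTCA, the core sequence bound by many nuclear receptors, PPARα among them. Sequences are from RefSeq on GRCm38.p6, written 5′ to 3′ on the strand of the gene, and capitals mark the hexamer or its reverse complement. The windows are chr7:100472741-100472990 (plus strand), chr4:141623835-141624084 (minus strand) and chr12:108850879-108851128 (plus strand). The RefSeq start used for *Slc25a47* lies inside the GENCODE gene given above, so its window is not upstream of the GENCODE start.
Ucp3: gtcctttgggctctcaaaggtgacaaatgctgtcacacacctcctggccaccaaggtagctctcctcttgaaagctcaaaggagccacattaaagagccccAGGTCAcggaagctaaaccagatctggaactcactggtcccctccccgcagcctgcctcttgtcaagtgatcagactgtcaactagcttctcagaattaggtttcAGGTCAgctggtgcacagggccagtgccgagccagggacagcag
Slc25a34: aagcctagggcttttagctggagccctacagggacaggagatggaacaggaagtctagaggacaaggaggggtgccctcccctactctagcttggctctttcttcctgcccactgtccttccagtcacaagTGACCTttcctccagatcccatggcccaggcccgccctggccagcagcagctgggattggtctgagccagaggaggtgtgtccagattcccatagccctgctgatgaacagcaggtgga
Slc25a47: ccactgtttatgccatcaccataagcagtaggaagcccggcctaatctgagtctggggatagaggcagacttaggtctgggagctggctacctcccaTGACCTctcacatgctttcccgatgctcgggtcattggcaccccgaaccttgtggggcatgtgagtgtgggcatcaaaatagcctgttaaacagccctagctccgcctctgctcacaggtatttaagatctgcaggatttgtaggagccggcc

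In *Ucp3* the hexamer begins 149 and 44 bases before the start, both on the gene's own strand. In *Slc25a34* and *Slc25a47* it occurs once, 119 and 153 bases before the start, on the opposite strand. Searched on both strands, AGGTCA was present in 14% of the 32851 mouse promoter windows of this length and in 6 of the 49 windows (12.2%) of the 39 member genes that the RefSeq table holds, the other 3 genes being *Slc25a39*, *Slc25a45* and *Ucp1*. The hexamer repeated in the same direction with any 1 base between occurred in 0.0335% of all windows, and the CTCF core spelled CC, any 3 bases and AGGGGGC in 1.17%, and neither occurred in a member window. Among the members not in the table were *Slc25a41*, *Slc25a37*, *Slc25a46*, *Slc25a35*, *Slc25a51*, *Slc25a26*, *Slc25a32*, *Slc25a44*, *Slc25a2* and *Slc25a27*.

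**Figure D2:**
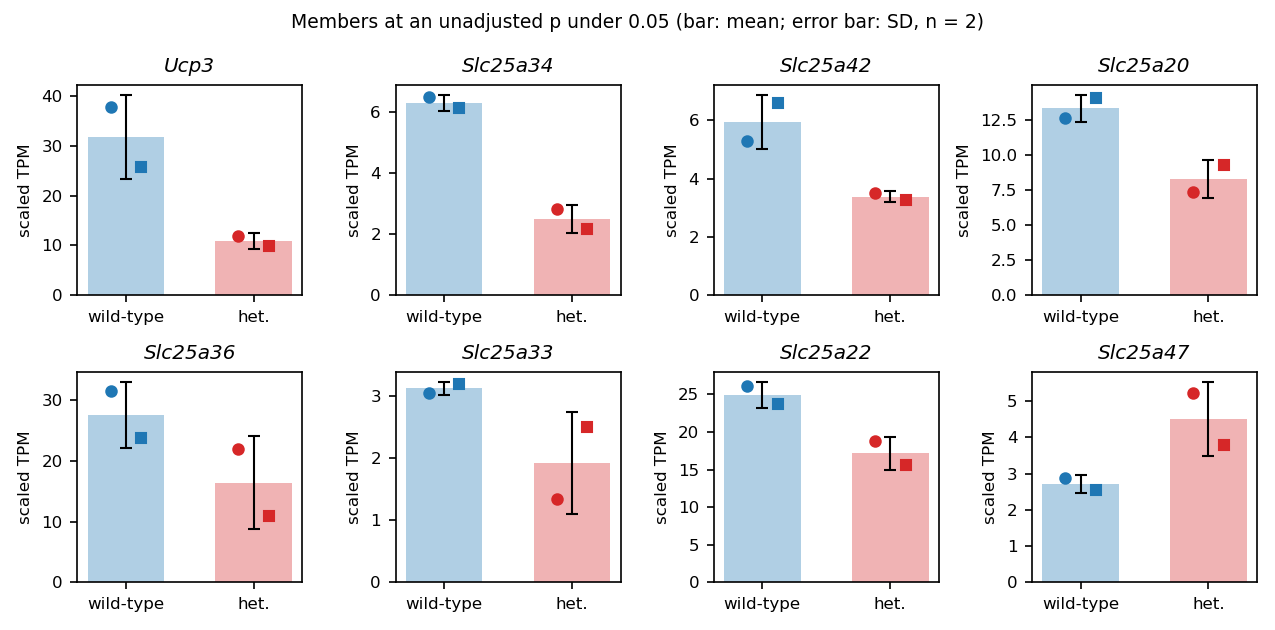
Scaled TPM in each heart for the 8 carrier genes at an unadjusted p under 0.05, with the mean as a bar and the SD as an error bar (n = 2 per genotype). In 7 panels both heterozygous hearts lie below both wild-type hearts, and in the panel of *Slc25a47* both lie above.

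The carriers of acylcarnitine and coenzyme A had the lowest median of the 10 classes, -0.63 over 3 tested genes, with 2 lower and 1 higher. *Slc25a20*, the carnitine/acylcarnitine carrier that brings long-chain fatty acids to the matrix, lies at chr9:108662088-108684641 on the plus strand and stood at 12.6 and 14 against 7.34 and 9.24 scaled TPM. The genotypes did not overlap, and the difference was -0.63 (SE 0.17, 95% interval -1.03 to -0.23, limma adjusted p = 0.335). *Slc25a42*, which imports coenzyme A in exchange for adenine nucleotides, lies at chr8:70184340-70212305 on the minus strand and stood at 5.28 and 6.6 against 3.51 and 3.25. Its difference of -0.66 had an SE of 0.15 and a 95% interval of -1.02 to -0.29 (limma adjusted p = 0.304). Its relative *Slc25a16* was below the filter at 1.2 and 1.06 against 0.82 and 0.764 scaled TPM, lower in both heterozygous hearts, and made up 18.5% and 13.8% of the pair's summed TPM against 18.9% and 19.0%. *Slc25a17*, the peroxisomal member of the class, went the other way at 6.99 and 5.2 against 8.42 and 7.71, with a difference of 0.36 (SE 0.17, 95% interval -0.05 to 0.77) that was -0.02 on TPM as deposited.

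The enzymes that make and use acylcarnitines beside *Slc25a20* differed less. All 4 of them, *Cpt1a*, *Cpt1b*, *Cpt2* and *Crat*, were lower in both heterozygous hearts (23.3% of all tested genes), with a median difference of -0.21 and 0 at an unadjusted p under 0.05. *Cpt2*, the matrix enzyme that returns acylcarnitine to acyl-CoA, had a difference of -0.40 (SE 0.18, limma adjusted p = 0.425), and *Cpt1b*, the muscle enzyme of the outer membrane, stood at 120.0 and 122 against 119.6 and 92.1.

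The ADP/ATP and phosphate carriers were the most abundant members. *Slc25a4*, the adenine nucleotide translocator of heart and muscle, stood at 585 and 703 against 399.6 and 539.8 scaled TPM, and *Slc25a3*, the phosphate carrier, at 344 and 378 against 274 and 282. Heterozygous values were below wild-type values in both genes. The differences were -0.47 (SE 0.23, 95% interval -1.02 to 0.09, limma adjusted p = 0.451) and -0.37 (SE 0.19, 95% interval -0.82 to 0.07, limma adjusted p = 0.450), so neither passed even the unadjusted threshold. *Slc25a5*, the translocator found in most tissues, stood at 48.7 and 48.3 against 33.4 and 45.2 (difference -0.31, SE 0.20). The 3 genes together held 74.7% and 78.6% of the family's TPM in wild-type hearts, against 73.1% and 77.1% in heterozygous hearts, and these ranges overlapped. *Slc25a4* made up 92.3% and 93.6% of the TPM of *Slc25a4* and *Slc25a5* against 92.3% in each heterozygous heart. *Slc25a31*, the form of the germ line, was below the filter at 0.414 to 0.917 scaled TPM.

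**Figure D3:**
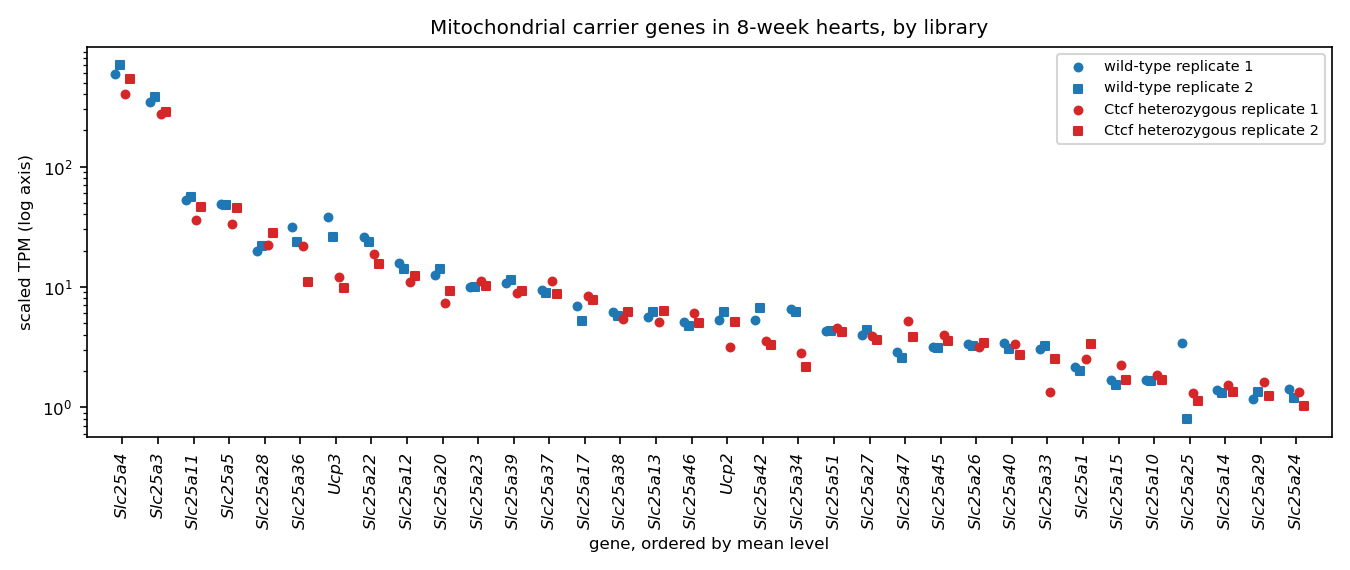
Scaled TPM of 34 of the 35 tested carrier genes in each of the 4 hearts on a log axis, ordered by mean level, with colours for genotype and symbols for replicate. *Slc25a4* and *Slc25a3* stand above the rest, from 274 to 703, and *Ucp3* shows the widest gap between genotypes among the abundant members.

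The aspartate and glutamate carriers were lower in all 3 tested genes, with a median of -0.35. *Slc25a22*, a glutamate carrier, lies at chr7:141429744-141437892 on the minus strand and stood at 26.2 and 23.7 against 18.7 and 15.6 scaled TPM. Its genotypes did not overlap (difference -0.52, SE 0.17, 95% interval -0.92 to -0.11, limma adjusted p = 0.35). *Slc25a12*, the calcium-regulated aspartate/glutamate exchanger of heart and brain, stood at 15.9 and 14 against 10.9 and 12.2 (difference -0.35, SE 0.16, limma adjusted p = 0.425), whereas *Slc25a13*, the form typical of liver, overlapped between genotypes at 5.05 to 6.23. *Slc25a12* made up 74.0% and 69.6% of the pair's TPM in wild-type hearts, against 68.3% and 66.2% in heterozygous hearts (two-sided exact permutation p = 0.33). *Slc25a18*, a second glutamate carrier, was below the filter at 0.147 to 0.31.

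*Slc25a11*, the oxoglutarate/malate carrier that completes the malate-aspartate shuttle with *Slc25a12*, was the 3rd most abundant member in all 4 hearts, at 52.9 and 55.9 against 36.1 and 46.1 scaled TPM. Both heterozygous values were lower, with a difference of -0.40 (SE 0.19, 95% interval -0.86 to 0.05, limma adjusted p = 0.431). Its exons share 189 bases with *Rnf167* on the opposite strand, and since the strandedness of the counting is not given in the sources used here, reads of the pair may not be told apart. The shuttle's 4 enzymes were all lower in mean (50.7% of all tested genes), with a median of -0.53 and 3 at an unadjusted p under 0.05 (5.71% of all). The cytosolic malate dehydrogenase *Mdh1* stood at 90.4 and 110.0 against 51.6 and 71.3 (difference -0.71, SE 0.22), the mitochondrial *Mdh2* at 187 and 219 against 118 and 140.3 (difference -0.65, SE 0.20), and the cytosolic aspartate aminotransferase *Got1* at 48.1 and 44.6 against 35.8 and 33.2 (difference -0.42, SE 0.17). Their limma adjusted p values were 0.346, 0.341 and 0.394, and *Got2*, the mitochondrial aminotransferase, overlapped between genotypes (difference -0.38, SE 0.23). The other carriers of di- and tricarboxylates did not share this direction. *Slc25a1*, the citrate carrier that feeds cytosolic lipid synthesis, stood at 2.15 and 2 against 2.50 and 3.37 (difference 0.35, SE 0.16, 95% interval -0.03 to 0.72), *Slc25a10*, the dicarboxylate carrier, had a difference of 0.05, and *Slc25a21*, the oxodicarboxylate carrier, was at most 0.0775.

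Among the 5 tested carriers of nucleotides and cofactors the median difference was 0.01. The pyrimidine nucleotide carriers *Slc25a36* and *Slc25a33* were the members that stood apart. *Slc25a36*, at chr9:97074961-97111157 on the minus strand, stood at 31.4 and 23.7 against 21.8 and 11.0 scaled TPM, so that the genotypes came close to each other and the 95% interval reached from -1.53 to -0.02 (difference -0.77, SE 0.32, limma adjusted p = 0.402). Without heterozygous replicate 2 its difference was -0.31, and without heterozygous replicate 1 it was -1.24. *Slc25a33*, at chr4:149744036-149774277 on the minus strand, stood at 3.04 and 3.19 against 1.33 and 2.5 (difference -0.53, SE 0.21, 95% interval -1.02 to -0.03, limma adjusted p = 0.391), and was lowest in heterozygous replicate 1, where *Slc25a36* was not. The share of *Slc25a33* in the pair was 8.84% and 11.9% against 5.76% and 18.6%, with overlapping genotypes. Exons of *Slc25a33* share 281 bases with the antisense gene *Gm13068*. *Slc25a51* (NAD+) and *Slc25a26* (S-adenosylmethionine) had differences of 0.02 and 0.01, and *Slc25a32*, linked to folate and flavin transport, was below the filter at 0.818 to 0.991.

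The iron and glutathione carriers were split, with 2 of 4 lower, 2 higher and a median of 0.02. The mitoferrins, which import iron for haem and iron-sulphur clusters, stood at 19.8 and 21.9 against 22.4 and 27.9 scaled TPM for *Slc25a28* (difference 0.25, SE 0.18) and 9.36 and 8.82 against 11.2 and 8.66 for *Slc25a37*. *Slc25a37* is the form of developing red cells, and the 5 erythroid markers fixed for the comparison were higher in mean in heterozygous hearts, with a summed level of 930 and 987 against 965 and 2120 that was set by heterozygous replicate 2. The glutathione carriers *Slc25a39* and *Slc25a40* had differences of -0.26 (SE 0.14) and -0.06 (SE 0.15). *Slc25a28* was 67.9% and 71.3% of the mitoferrin pair against 66.7% and 76.3%, and *Slc25a39* was 75.9% and 78.9% of the glutathione pair against 72.5% and 77.1%, with overlap in both.

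The ATP-Mg/phosphate carriers, which adjust the matrix adenine nucleotide pool in response to calcium, had a median of -0.07 over 3 tested genes. *Slc25a23* was steady within wild-type hearts at 9.92 and 9.93 and stood at 11.2 and 10.2 in heterozygous hearts (difference 0.10, SE 0.15), and *Slc25a24* overlapped between genotypes at 1.03 to 1.41. The value of *Slc25a25* was set by 1 library, wild-type replicate 1, at 3.39 against 0.794 to 1.32 in the other hearts, and its difference of -0.34 (SE 0.38) became 0.31 without that library. *Slc25a41*, neighbour of *Slc25a23* on chromosome 17, did not exceed 0.0276 in wild-type hearts, with both heterozygous hearts listed at 0. The remaining amino acid carriers had a median of 0.11, with *Slc25a38* (glycine for haem synthesis) at -0.05, *Slc25a15* (ornithine) at 0.18 and *Slc25a29* at 0.11, and *Slc25a44* (branched-chain amino acids) and *Slc25a2* (ornithine) below the filter. In the class with no settled substrate, 3 of the 4 tested genes were higher, *Slc25a46* of the outer membrane by 0.14 (SE 0.15), *Slc25a45* by 0.21 (SE 0.13) and *Slc25a47* as above. *Slc25a53*, below the filter, stood at 0.598 and 0.46 against 1.003 and 0.808 scaled TPM, higher in both heterozygous hearts. *Slc25a35* and *Slc25a43* were between 0 and 0.77 in each library, and *Slc25a48* and *Slc25a54* were listed at 0 in all 4.

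**Figure D4:**
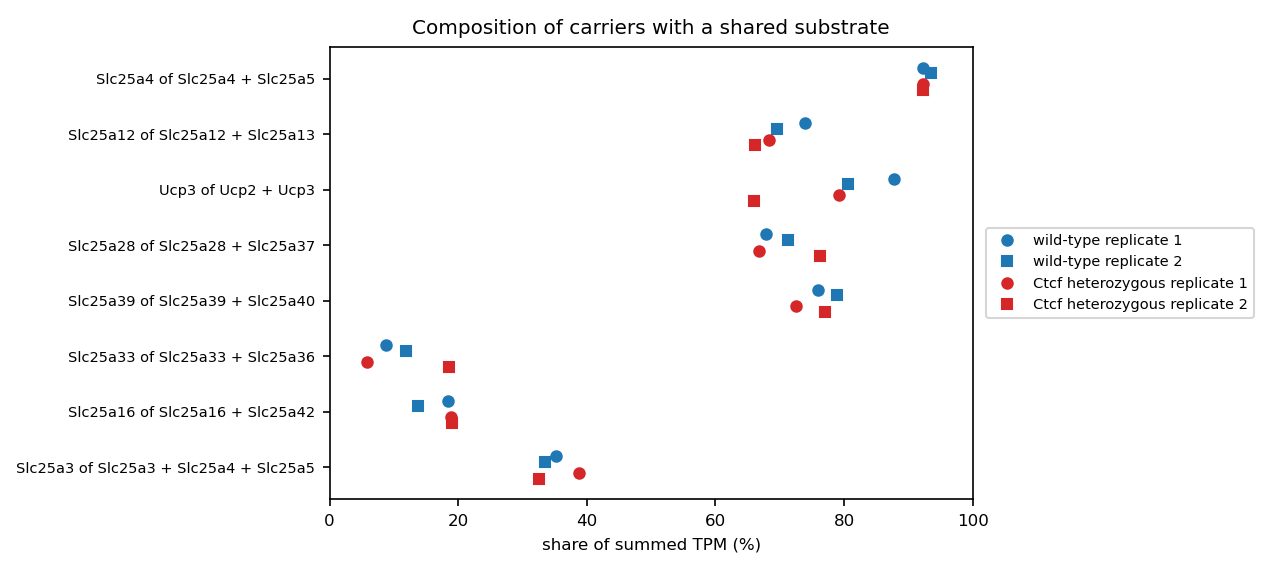
Share of the summed TPM held by 1 gene among carriers with a shared or related substrate, in percent, for each of the 4 hearts. The share of *Ucp3* in *Ucp2* + *Ucp3* and that of *Slc25a12* in *Slc25a12* + *Slc25a13* are lower in both heterozygous hearts, and for 4 of the 8 shares the genotypes overlap.

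The direction was also counted by level. Of the 13 tested members with a mean of at least 10 scaled TPM, 10 were lower, with a median difference of -0.37, while 51.7% of the 2540 tested genes in that range were lower, with a median of -0.02. Of the 22 members below 10 scaled TPM, 10 were lower and the median was 0.01, against 50.4% of 7496 genes. This split was chosen after the values were seen. As a share of the TPM of all genes not named mt-, the family took 0.403% and 0.466% in wild-type hearts, against 0.252% and 0.271% in heterozygous hearts (two-sided exact permutation p = 0.33). With the nuclear copies of mt- genes also left out of the total, an alternative added after the values were seen, the share was 0.673% and 0.754% against 0.557% and 0.576%. Transcript levels from whole hearts cannot tell fewer cells of a type from less RNA per cell.

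**Figure D5:**
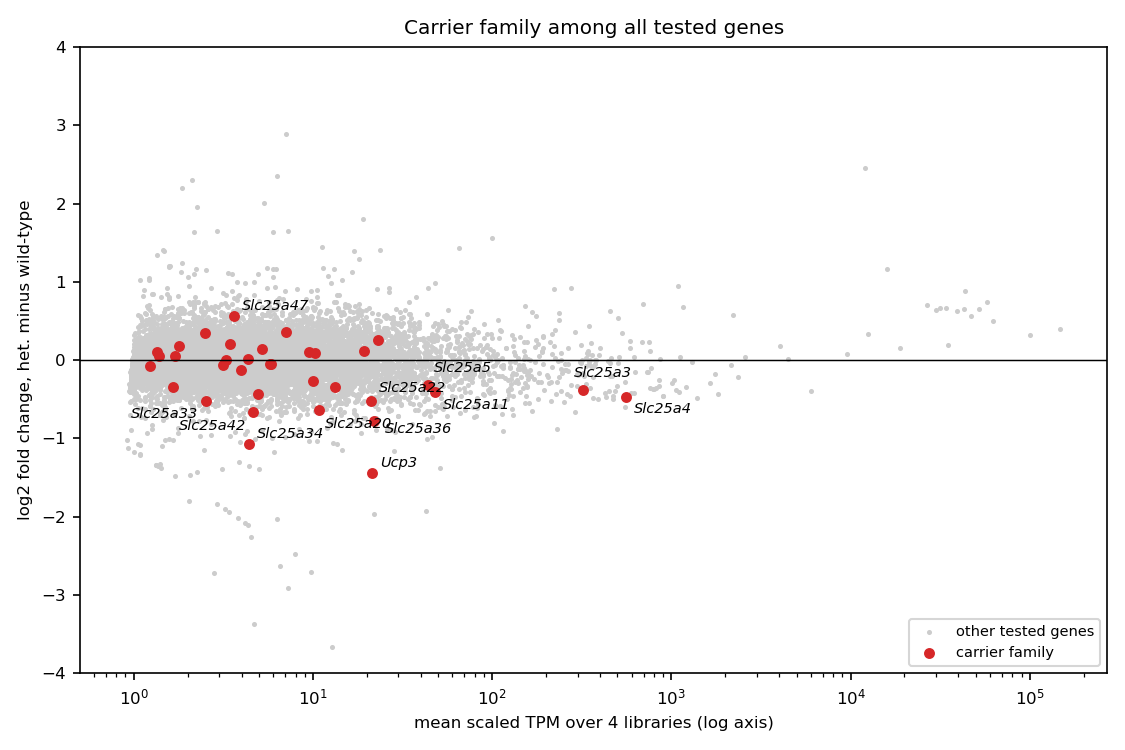
Difference between genotypes (log2 scale) against mean scaled TPM (log axis) for the 10036 tested genes in grey and the 35 tested carrier genes in red. The members above 10 scaled TPM lie mostly below 0, with a median of -0.37, and the remaining members lie on both sides of 0, with a median of 0.01.

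Transport across the mitochondrial membranes outside the family was described from a list of 17 genes, 16 of them tested. In mean 11 were lower and 5 higher, with a median of -0.14, and 3 were lower and 1 higher at an unadjusted p under 0.05, against 5.71% and 6.49% of all tested genes. Among them, *Vdac1*, a pore of the outer membrane, stood at 38.0 and 37.1 against 25.4 and 28.3 scaled TPM (difference -0.47, SE 0.16), and the inner membrane cation exchanger gene *Letm1* at 6.08 and 6.29 against 3.51 and 4.56 (difference -0.52, SE 0.16). *Sfxn2*, a sideroflexin, was at 2.63 and 2.28 against 3.12 and 3.83 (difference 0.37, SE 0.15). None of these named genes passed the adjustment, with limma adjusted p values from 0.341 to 0.396, and the pyruvate carrier genes *Mpc1* and *Mpc2* and the calcium uniporter gene *Mcu* had differences of -0.20, -0.09 and 0.04. The pore genes *Vdac2* and *Vdac3* were more abundant than *Vdac1*, with differences of -0.24 (SE 0.19) and -0.27 (SE 0.19). The TIM22 pathway, which inserts carrier proteins into the inner membrane, had 5 of 10 genes lower and 5 higher, with a median of 0.00 and 0 at an unadjusted p under 0.05.

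*Ucp3* and *Slc25a20* are known targets of PPARα, the nuclear receptor that regulates fatty acid use. Of 18 other PPARα target genes 17 were tested, all 17 were lower in mean, 16 without overlap of the genotypes, and 12 were lower at an unadjusted p under 0.05, with a median of -0.52. Over all tested genes these shares were 50.7%, 23.3% and 5.71%. The list was chosen with earlier results of these data known, so its counts are no independent evidence. A role of PPARα in these differences was not tested. *Pdk4*, an inhibitor of pyruvate dehydrogenase, stood at 13.9 and 7.78 against 2.37 and 1.34 scaled TPM (difference -2.02, SE 0.29, limma adjusted p = 0.174), and *Angptl4*, an inhibitor of lipoprotein lipase, at 3.18 and 1.75 against 0.465 and 0.255 (difference -1.32, SE 0.22, limma adjusted p = 0.208). *Ucp3*, *Pdk4* and *Angptl4* ordered the 4 hearts alike, highest in wild-type replicate 1 and lowest in heterozygous replicate 2. These genes were picked after the values were seen, and *Slc25a20*, *Hadha*, *Plin5* and *Cd36* did not share the order. *Hadha*, of the trifunctional protein of β-oxidation, stood at 68.8 and 70.2 against 40.4 and 43.5 (difference -0.72, SE 0.17), the lipid droplet gene *Plin5* at 7.96 and 6.69 against 3.63 and 4.43 (difference -0.73, SE 0.16), and the fatty acid transporter *Cd36* at 40 and 51.2 against 30.9 and 26.8 (difference -0.64, SE 0.19). None of the 17 passed the adjusted threshold in limma, where the lowest adjusted p was that of *Pdk4*.

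Markers of other cells were compared because carriers differ between tissues. Of the brown fat markers, *Ucp1*, *Elovl3* and *Zic1* were at or near 0 in all 4 hearts, and *Cidea* stood at 5.63 and 5.70 against 5.50 and 6.23 scaled TPM. The 4 white fat markers summed to between 0.110 and 0.478, and of the 6 skeletal muscle markers the myosins *Myh1*, *Myh2* and *Myh4* were listed at 0 in every library. The 6 summed to 2.56 and 2.82 against 3.44 and 3.74, higher in both heterozygous hearts, most of it from *Mylpf* and *Tnnt3*, and their part in the carrier values was not tested. Endothelial markers had a median difference of -0.11 and were split. *Pecam1* (-0.43, lower at an unadjusted p under 0.05) and *Kdr* (-0.21) were lower in both heterozygous hearts. *Tie1* (0.14) was higher in both, and *Cdh5* (-0.02) overlapped between genotypes. Fibroblast and macrophage markers had median differences of -0.06 and -0.02. The 4 atrial markers *Myl7*, *Sln*, *Nppa* and *Myl4* were all higher in mean, with a median of 0.83 and a summed level of 806 and 2354 against 1918 and 3281, and wild-type replicate 1, where *Ucp3* and *Slc25a36* were highest, was the lowest of the 4. The part of the atrial and erythroid differences in the carrier values was not tested.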

How the data were processed

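Heart RNA of 4 mice aged 8 weeks was analysed, 2 wild-type and 2 *Ctcf* heterozygous, grouped by the genotype and replicate number in the labels. The authors deposited TPM values per gene, made from polyA RNA libraries with Trim Galore, STAR and RSEM on mm10 according to the submitters' processing notes, which also name DESeq2. TPM keep no depth, so depth and counting error are unknown, and read counts were not used here. P-values rest on the spread between these 4 libraries.

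Median-of-ratios factors were taken from the tested genes found above 0 in all 4 libraries, and scaled TPM received a pseudocount of 1. Genes reaching a mean TPM of 1 entered limma (3.58.1) in R (4.3.3), lmFit and eBayes with trend, and p-values were adjusted by Benjamini-Hochberg across them. Single-gene p-values and adjusted p-values are from this model. Shares were compared by exact permutation tests in scipy (1.17.1), with Python (3.11.15) and pandas (2.3.3). The script was tested on simulated data. Libraries correlated at 0.966 to 0.981 over tested genes. Positions are those of GENCODE vM21, to which 55141 of 55401 gene identifiers matched. Near-identical copies of members were sought with BLAST+ (2.17.0), requiring 95% identity across 80% of the length of the copy's transcript. They were found for *Slc25a5*, *Slc25a37* and *Slc25a40* and held at most 1.79% of the gene's TPM.

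Members are named or counted, and 2 genes are counted in totals but not reported here by name. Full values are given for *Ucp1*, *Ucp2*, *Ucp3*, members at an unadjusted p under 0.05 or beyond 0.58 on the log2 scale, and members of at least 50 scaled TPM, and other named values were chosen after they were seen. Members, substrate classes and gene lists were chosen with earlier results of these data known, and the list of PPARα targets is no independent evidence. Alternatives were other pseudocounts, filters, scalings, eBayes settings, a replicate block and each library left out.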

Additional observations from a re-analysis of the deposited data

How the results depend on the processing

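The scaling decided most of the shifts. On TPM as deposited the family median was -0.43 and that of all tested genes -0.35. At an unadjusted p under 0.05, 17 members were lower and 0 higher, against 33.3% and 0.518% of all tested genes. Called lower were 2 members, among 11 of all tested genes. Among the differences then below 0 were those of *Slc25a17* (-0.025), *Slc25a23* (-0.31), *Slc25a10* (-0.23), *Slc25a28* (-0.17), *Slc25a37* (-0.30), *Slc25a46* (-0.24), *Slc25a45* (-0.14), *Slc25a51* (-0.35), *Slc25a26* (-0.34), *Slc25a15* (-0.11), *Slc25a29* (-0.15) and *Slc25a14* (-0.21). With mt- genes removed, the family median was -0.37 and that of all tested genes -0.31. Then 15 members were lower and 0 higher at an unadjusted p under 0.05, against 28.5% and 1.11% of all tested genes. Called lower were 2 members, among 12 of all tested genes. Differences below 0 included those of *Slc25a23* (-0.22), *Slc25a10* (-0.21), *Slc25a28* (-0.070), *Slc25a37* (-0.21), *Slc25a46* (-0.16), *Slc25a45* (-0.059), *Slc25a51* (-0.29), *Slc25a26* (-0.30), *Slc25a15* (-0.043), *Slc25a29* (-0.11) and *Slc25a14* (-0.20). With a mean TPM of at least 5, 19 members were tested, and their median was -0.31. At that p 4 were lower and 0 higher, against 6.42% and 7.37% of all tested genes. Without a filter 2 were higher, against 4.87% of all tested genes. Quantile normalization gave -0.00047 for *Slc25a26*.

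Leaving out 1 library at a time, the members lower at an unadjusted p under 0.05 numbered 3 to 12 and those higher 0 to 2, and the family median lay between -0.10 and -0.0020. The higher count was 2 without heterozygous replicate 1 and 0 without wild-type replicate 2. Differences took both signs for *Slc25a13* (-0.18 to 0.076), *Slc25a14* (-0.0028 to 0.10), *Slc25a24* (-0.18 to 0.026), *Slc25a25* (-0.99 to 0.31), *Slc25a26* (-0.035 to 0.045), *Slc25a29* (-0.0052 to 0.22), *Slc25a37* (-0.062 to 0.27), *Slc25a38* (-0.13 to 0.032), *Slc25a40* (-0.18 to 0.054) and *Slc25a51* (-0.026 to 0.056). In percentage points, so did the shares of *Slc25a28* among the mitoferrins (-2.91 to 6.72), *Slc25a33* in its pair (-4.60 to 8.22), *Slc25a3* among the 3 abundant carriers (-1.78 to 4.42) and those 3 in the family (-3.54 to 0.45). Where a genotype keeps 1 library, that library is assumed to vary like the other genotype.

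The replicate numbers pair different mice, and their deviations correlated at 0.101 over all tested genes and 0.404 over the tested members. With the replicate block, 8 members were lower and 2 higher at an unadjusted p under 0.05, against 7.12% and 7.20% of all tested genes. No member was called, where 7 of all tested genes were called lower and 3 higher, and no other result changed its call. The low number of mice and the unknown depth limit every value, and the cause of these shifts was not tested.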
